A study of Mus musculus with 6 samples.

Results

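The 9 genes described here, Klf2, Klf4, Klf5, Esrrb, Tbx3, Tfcp2l1, Nr0b1, Nr5a2 and Prdm14, encode transcription regulators of the naive pluripotency network of mouse embryonic stem (ES) cells. They were chosen by name as members of that network, and each is the only gene symbol of exactly 1 probe set in the deposited array table, so all 9 of 9 were measured, among 22180 genes in all. Gene expression was profiled on 6 single-colour arrays, 3 of Pax7-GFP cells and 3 of undifferentiated, pluripotent ES cells. The Pax7-GFP cells came from mouse ES cells taken through 3 weeks of differentiation toward skeletal muscle, and were sorted by flow cytometry for the green fluorescent Pax7 reporter with the gate set on undifferentiated cultures. The titles call the replicates biological, but how many cell lines or clones stood behind them, and whether the ES cells were also sorted, is not stated. The spread behind every p-value is therefore that of these samples alone. All values below are log2 signals made with RMA (robust multi-array average), and a difference is always Pax7-GFP minus ES.

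Mouse ES cells in the naive state resemble the inner cell mass of the early embryo and hold themselves there by a mutually reinforcing set of transcription factors around Oct4, Sox2 and Nanog. Leukaemia inhibitory factor (LIF), acting through Stat3, and Wnt signalling, acting by relieving repression by Tcf7l1, feed this set from outside: Klf4 and Tfcp2l1 are known targets of Stat3, and Esrrb is a known target that Tcf7l1 represses. The factors belong to several protein families, and most of them also have separate duties in differentiated tissues.

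Of the 9 factors 8 were lower in Pax7-GFP cells, 0 were higher and 1, Tbx3, was not called. Calls required both a 2-fold difference and an adjusted p below 0.05 (limma, Benjamini-Hochberg over all genes), a rule that called 7.15% of all genes lower, 7.34% higher and 14.5% in either direction. With no minimum fold the same 8 factors passed, as did 41.1% of all genes. The 8 falls lay between 125-fold for Nr0b1 and 2.75-fold for Esrrb, and the median change of the 9 was -2.16 on the log2 scale, against 0.024 over all genes. Pax7-GFP and ES arrays did not overlap in the same 8 genes, an arrangement found in 51.9% of all genes. Whether fewer cells transcribed a gene or each cell held less of its RNA cannot be told apart in these bulk samples.

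**Figure D1:**
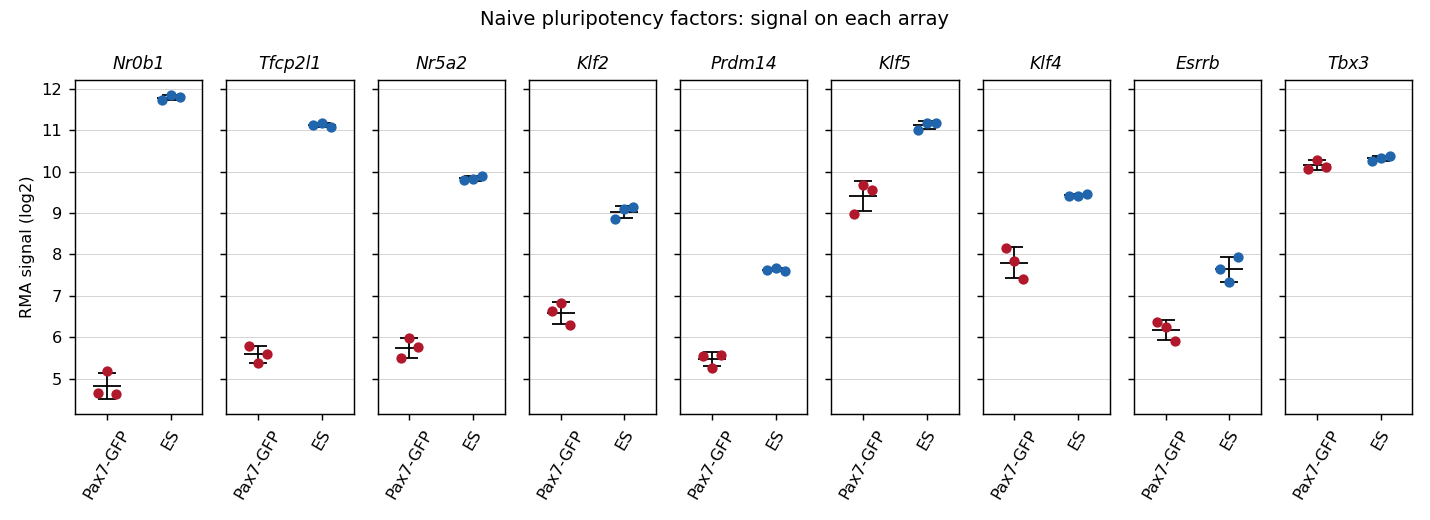
RMA signal (log2) of each factor on every array, with the 3 Pax7-GFP arrays in red to the left of the 3 ES arrays in blue, and black bars for the mean and SD of each group. Pax7-GFP arrays lay below all ES arrays for every factor except Tbx3, which averaged 10.15 on Pax7-GFP and 10.32 on ES arrays.

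Array medians lay between 5.61 and 5.69 on the deposited scale. Markers went with the labels: of 10 myogenic genes 8 rose in Pax7-GFP cells, led by Pax7 itself at 5.20 and the determination factor Myf5 at 5.16 (limma adjusted p = 3.93e-08 and 1.87e-08). The first of these is the gene of the sorting reporter, so its rise is no finding. Among all genes the median SD was 0.14 on Pax7-GFP and 0.084 on ES arrays, and the factors spread over 0.11 to 0.38 and 0.018 to 0.29. The values come without detection calls. A signal near the array medians can therefore not be called absent, and RMA compresses folds there.

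The nuclear receptors of the set included the largest and the smallest of the 8 falls. Nr0b1 (Dax1, probe set 17536201) is an X-linked orphan receptor without a classical DNA-binding domain, known for adrenal and gonadal development and as a partner of Oct4 and Esrrb in ES cells. Its signals were 4.66, 5.19 and 4.62 on Pax7-GFP arrays, against 11.72, 11.84 and 11.80 on ES arrays. All Pax7-GFP signals thus lay below the array medians and all ES signals far above them. The difference of -6.96 on the log2 scale (SE 0.15, limma adjusted p = 2.24e-08) ranked 6 among the falls of all 22180 genes. With signals below the median of all values raised to it, the fall stood at -6.14.

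Nr5a2 (probe set 17227515), the liver receptor homolog LRH-1, drives bile acid genes in the liver and binds regulatory regions of Pou5f1 and Nanog in ES cells. It had signals of 5.50, 5.98 and 5.76 on Pax7-GFP arrays and of 9.79, 9.82 and 9.90 on ES arrays. The groups were far apart, with a difference of -4.09 (SE 0.12, limma adjusted p = 9.14e-08) that ranked 80 among the falls. Falls of 16-fold or more that passed the adjusted p were rare, at 0.41% of all genes, and Nr0b1, Tfcp2l1 and Nr5a2 were 3 of these 91 genes.

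Esrrb (probe set 17277504), the oestrogen-related receptor that occupies many pluripotency genes and is a target of Nanog, showed the smallest of the 8 falls. Its signals were 6.38, 6.25 and 5.92 on Pax7-GFP arrays, against 7.65, 7.34 and 7.93 on ES arrays. The ES arrays spread widely for this gene, with an SD of 0.29, the largest of the 9, yet the groups did not overlap. The log2 fold change was -1.46 (SE 0.17, 95% interval -1.85 to -1.07, limma adjusted p = 0.000189). In a limma test against a 2-fold difference Esrrb did not pass (adjusted p = 0.15), while the other 7 lower factors did.

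The related nuclear receptors were not called lower. Of 6 tested (Esrra, Esrrg, Nr5a1, Nr0b2, Esr1 and Esr2) 0 fell and 1 rose, with a median change of 0.24. The riser was the oestrogen receptor gene Esr1, with signals of 7.87, 7.50 and 7.74 on Pax7-GFP arrays and of 5.84, 5.83 and 5.61 on ES arrays (log2 fold change 1.94, SE 0.12, limma adjusted p = 4.22e-06). Nr5a1 and Nr0b2, the closest relatives of Nr5a2 and Nr0b1, had changes of 0.060 and -0.014, neither past the test. Nr5a1 averaged 5.08 on Pax7-GFP and 5.02 on ES arrays, and Nr0b2 4.71 and 4.73, all below the array medians. Steady expression can therefore not be read from these 2 changes.

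Tfcp2l1 (probe set 17216620), a CP2-family factor that sustains ES cells downstream of LIF and is otherwise known from kidney collecting ducts, had the second largest fall. Its signals were 5.78, 5.38 and 5.60 on Pax7-GFP arrays and 11.12, 11.17 and 11.08 on ES arrays. ES arrays agreed closely, with an SD of 0.041, and the Pax7-GFP arrays lay around the array medians. The log2 fold change was -5.53 (SE 0.11, limma adjusted p = 1.87e-08), or 46.4-fold, rank 22 among the falls. Of its 5 relatives among the CP2 and grainyhead genes, Grhl3, an epithelial factor, fell by 2.03 (SE 0.12, limma adjusted p = 4.47e-06). The other 4 were not called, and Tfcp2 and Ubp1, the nearest CP2 relatives, stood at 0.33 and 0.26.

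Promoter windows were looked up for the factors, because 8 of them moved the same way, and because 2 families among them bind well-known short motifs. RefSeq promoters (GRCm38.p6, 250 bases before to 50 after the start of a transcript) were matched for 6 of the 9, in 8 windows; the genes not matched were Klf5, Tbx3 and Prdm14. The windows of the 3 largest falls are shown beside that of Klf4, whose fall was among the smallest. Nr0b1 is at chrX:86191525-86191824 (+), Tfcp2l1 at chr1:118627695-118627994 (+), the upstream start of Nr5a2 at chr1:136960399-136960698 (-) and Klf4 at chr4:55532426-55532725 (-). Each is printed 5′ to 3′ on the strand of its gene, and capitals mark AGGTCA, the half-site that Nr5a2 and Esrrb bind in extended form, and CCNCNCCC, a core that Klf proteins bind, on either strand.
Nr0b1: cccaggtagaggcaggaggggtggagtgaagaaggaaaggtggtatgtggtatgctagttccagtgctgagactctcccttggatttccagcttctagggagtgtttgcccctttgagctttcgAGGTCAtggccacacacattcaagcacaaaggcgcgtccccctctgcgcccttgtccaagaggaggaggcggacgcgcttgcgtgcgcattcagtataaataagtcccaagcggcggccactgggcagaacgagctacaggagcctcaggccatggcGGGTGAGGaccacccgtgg
Tfcp2l1: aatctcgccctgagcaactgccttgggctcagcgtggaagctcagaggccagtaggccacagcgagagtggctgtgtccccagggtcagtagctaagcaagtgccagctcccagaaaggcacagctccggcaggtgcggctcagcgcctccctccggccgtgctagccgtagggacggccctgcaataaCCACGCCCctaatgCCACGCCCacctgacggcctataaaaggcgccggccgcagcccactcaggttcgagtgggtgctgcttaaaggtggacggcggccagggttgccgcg
Nr5a2: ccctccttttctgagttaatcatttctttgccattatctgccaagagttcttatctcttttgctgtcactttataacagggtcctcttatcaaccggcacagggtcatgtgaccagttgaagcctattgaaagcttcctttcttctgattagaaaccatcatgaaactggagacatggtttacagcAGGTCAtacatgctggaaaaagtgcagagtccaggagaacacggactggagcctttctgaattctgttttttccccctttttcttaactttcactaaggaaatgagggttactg
Klf4: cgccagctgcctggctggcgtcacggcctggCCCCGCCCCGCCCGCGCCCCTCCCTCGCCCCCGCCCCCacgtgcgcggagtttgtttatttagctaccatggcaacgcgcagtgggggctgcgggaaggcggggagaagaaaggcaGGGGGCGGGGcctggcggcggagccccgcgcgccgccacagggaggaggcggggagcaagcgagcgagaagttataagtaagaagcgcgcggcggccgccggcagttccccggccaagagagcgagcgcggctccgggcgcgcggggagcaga
AGGTCA was found in 2 of the 8 windows, those of Nr0b1 (bases 125 to 130) and of the upstream start of Nr5a2 (bases 187 to 192), and in 16.3% of all 32851 promoter windows. CCNCNCCC was found in 7 of the 8 and in 49.5% of all windows. Klf4 held 9 matches, most of them overlapping, in a window of 74.3% G and C, against a median of 52.7% over all windows, and Tfcp2l1 held 2, just upstream of a TATAAA at bases 223 to 228. TATAAA was found in 3 of the 8, those of Tfcp2l1, Nr0b1 and the upstream start of Nr5a2, and in 13.6% of all windows. The Nr0b1 match lay at bases 219 to 224 on the strand of the gene, but the Nr5a2 match at bases 70 to 75 on the opposite strand. The octamer ATGCAAAT bound by Oct4 was in 0 of the 8 windows and in 1.74% of all, and TTCNNNGAA, a Stat motif, in 1 of the 8, the upstream start of Esrrb, and in 8.3% of all. Matches describe letters in these windows only, and no binding was measured.

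The Klf factors fell by less than the 3 largest fallers. These zinc finger proteins bind GC-rich DNA and can stand in for one another in ES cells, where removal of all of Klf2, Klf4 and Klf5 ends self-renewal. Klf2 (probe set 17502440), otherwise known for quiescence of endothelium and T cells, had signals of 6.64, 6.83 and 6.29 on Pax7-GFP arrays, against 8.85, 9.09 and 9.14 on ES arrays. The groups were clearly apart, with a difference of -2.44 (SE 0.15, limma adjusted p = 4.34e-06).

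Klf4 (probe set 17425401), a reprogramming factor that also builds the skin barrier, had signals of 8.15, 7.85 and 7.40 on Pax7-GFP arrays and of 9.42, 9.42 and 9.45 on ES arrays. Pax7-GFP signals thus remained well above the array medians, and differed among themselves far more than ES signals did, with SDs of 0.38 and 0.018. The log2 fold change was -1.63 (SE 0.17, limma adjusted p = 9.70e-05). Klf5 (probe set 17302397), which also acts in gut crypts and smooth muscle, had signals of 8.99, 9.69 and 9.56 on Pax7-GFP arrays and 11.01, 11.17 and 11.18 on ES arrays. It too kept a high signal, and differed by -1.71 (SE 0.17, limma adjusted p = 8.27e-05). The 95% interval of Klf5 (-2.11 to -1.31) overlaps those of Klf2 (-2.78 to -2.10) and Klf4 (-2.02 to -1.24), while the intervals of Klf2 and Klf4 lie just apart. Folds of different probe sets are compressed to different degrees, so this order is a description.

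The rest of the Klf family moved in both directions. Of 14 tested, 4 fell, 1 rose and 9 were not called, with a median of -0.16. After quantile normalization, or in limma's treat against 2-fold, 2 were lower. Klf8 fell by 3.90 (SE 0.11, limma adjusted p = 6.15e-08), and had signals of 5.45, 5.47 and 5.14 on Pax7-GFP arrays against 9.18, 9.29 and 9.29 on ES arrays, a larger change than that of any Klf among the 9. Klf12, a repressor, fell by 1.95 (SE 0.15, limma adjusted p = 1.47e-05). Klf3 and Klf9, the other fallers, lay at the 2-fold limit, and lost the call without Pax7-GFP replicate 2 (Klf3, -0.76) and without Pax7-GFP replicate 3 or ES replicate 3 (Klf9, -0.87 and -0.99). Klf6, a growth factor-induced gene, went the other way, with signals of 11.32, 11.38 and 11.24 on Pax7-GFP arrays and of 9.64, 9.64 and 9.86 on ES arrays (log2 fold change 1.60, SE 0.095, limma adjusted p = 3.84e-06). Klf genes share zinc finger sequence, and how far these probe sets avoid it is not given in the sources used here.

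Klf genes are also expressed outside pluripotent cells, and are among those that respond to growth factors and to tissue dissociation, so markers of such states are given beside them. Of 14 immediate early genes 11 rose and 0 fell in Pax7-GFP cells, with a median of 2.41, led by the transcription factors Egr1 at 5.91 and Fos at 4.34 (limma adjusted p = 3.43e-08 and 4.83e-07). The mean of these 14 genes was 10.08, 9.62 and 9.40 on Pax7-GFP arrays and 7.07 to 7.13 on ES arrays. Replicate 1 was highest and replicate 3 lowest among the Pax7-GFP arrays, as for Klf4, and as for Esrrb, which is not a Klf gene. Klf2 was highest in replicate 2 and Klf5 lowest in replicate 1, so these 2 did not follow that order. An order among so few arrays is a description.

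Of 10 fibroblast and mesenchyme markers 7 rose and 0 fell, led by the surface protease Fap at 4.29 and decorin, Dcn, at 3.03 (limma adjusted p = 8.47e-07 and 9.94e-06). Their mean was 8.50, 8.29 and 8.18 on Pax7-GFP arrays, again highest in replicate 1, and 6.38 to 6.60 on ES arrays. Endothelial markers had 1 of 8 higher, Cdh5 at 1.41, and 1 lower, Pecam1 at -2.43, and their mean stayed at 5.44 to 5.55 on Pax7-GFP and 5.65 to 5.66 on ES arrays. Of 9 epithelial markers Epcam (-4.53) and Cdh1 (-3.96) fell and the keratin Krt8 (1.29) rose, with means of 6.09 to 6.25 on Pax7-GFP and 7.00 to 7.10 on ES arrays. In limma's treat against 2-fold 0 endothelial and 0 epithelial markers were higher, and with signals floored at the median of all values 0 endothelial markers were. The part of any of these in the remaining Klf signals was not tested.

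**Figure D2:**
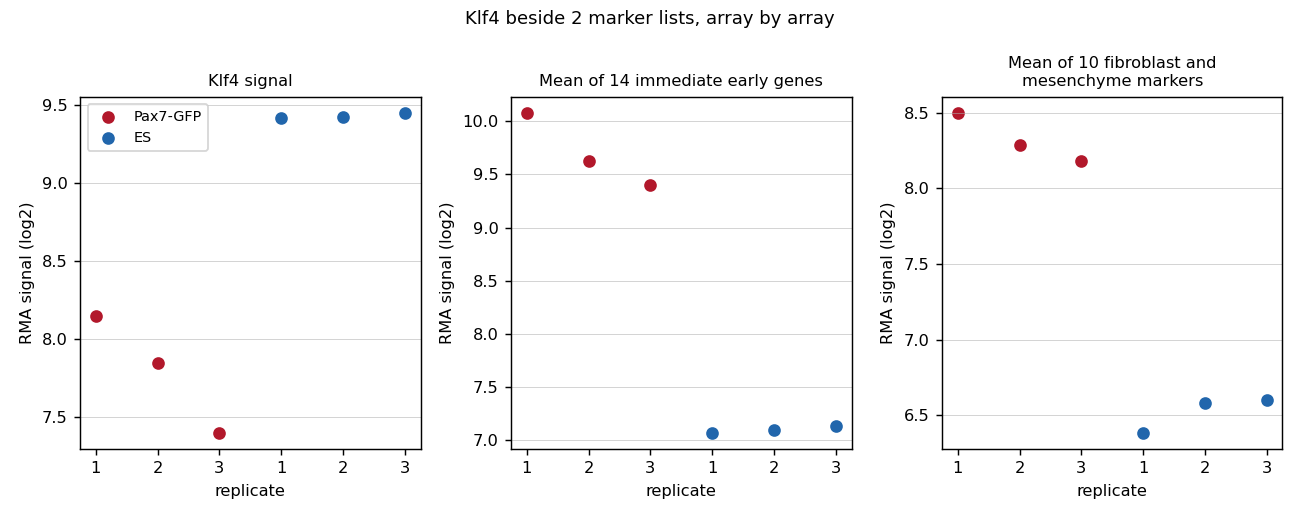
RMA signal (log2) on each array of Klf4, of the mean of 14 immediate early genes and of the mean of 10 fibroblast and mesenchyme markers, with Pax7-GFP replicates in red left of ES replicates in blue. In all 3 panels Pax7-GFP replicate 1 is the highest and replicate 3 the lowest of the Pax7-GFP arrays. Among factors not drawn, Esrrb has the same order, and Klf2 and Klf5 do not. Klf4 lies below, and both lists above, the ES arrays.

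Prdm14 (probe set 17221307), a PR-domain protein that keeps ES cells naive by restraining fibroblast growth factor signalling and new DNA methylation, and that is needed for primordial germ cells, was lower in Pax7-GFP cells. Its signals were 5.55, 5.27 and 5.58 on Pax7-GFP arrays and 7.62, 7.67 and 7.60 on ES arrays. Replicates agreed well in both groups, and the log2 fold change was -2.16 (SE 0.10, limma adjusted p = 9.79e-07). The interval, -2.40 to -1.93, overlaps that of Klf2. Among 13 other Prdm genes 0 passed as called in either direction, with changes between -0.73 and 0.85, although 5 passed the adjusted p alone.

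Genes tied to Prdm14 moved in both directions. Of 9 partners and targets 4 fell and 1 rose, with a median of -0.66. The de novo methylation genes Dnmt3l and Dnmt3b, which Prdm14 is known to repress, stood at -4.86 (SE 0.19) and -3.36 (SE 0.11), both lower (limma adjusted p = 3.89e-07 and 1.79e-07). Dnmt3l had signals of 5.07, 5.61 and 4.76 on Pax7-GFP arrays and of 9.96, 9.99 and 10.08 on ES arrays. Fgfr1, a fibroblast growth factor receptor also named as a target, rose by 1.18 (SE 0.091, limma adjusted p = 1.71e-05), and 0 of the 9 rose in limma's treat against 2-fold. Of 7 germ cell markers 4 fell and 0 rose, led by Dazl at -2.39 and Mael at -1.50. Without Pax7-GFP replicate 1 there were 2 lower germ cell genes, since Nanos3 and Tfap2c came to -0.98 and -0.99. With signals floored at the median of all values, or tested against 2-fold with limma's treat, 1 germ cell gene was lower, and leaving out dim genes kept 2 of the 7 in the fit, of which 1 was lower.

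Tbx3 (probe set 17441595) was the factor that kept its signal. It encodes a T-box repressor that promotes self-renewal in ES cells and is needed for limb, mammary gland and heart development, and its persistence was known when the set was chosen, so its values are given as a description. Signals were 10.07, 10.28 and 10.10 on Pax7-GFP arrays and 10.26, 10.32 and 10.38 on ES arrays. The groups overlapped, since Pax7-GFP replicate 2 lay above ES replicate 1. The log2 fold change was -0.17 (SE 0.090), and its 95% interval, -0.38 to 0.038, lies well within a 2-fold difference in either direction. This interval lies apart from those of all other 8 factors, of which Esrrb's comes nearest, at -1.07.

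Genes picked by name as neighbours of Tbx3 on its chromosome were not called where measured. The T-box neighbour Tbx5, a heart and forelimb factor, had a change of 0.26, and the noncoding genes Tbx3os2 and Gm16063 of -0.50 and -0.0093. Tbx3os2 passed the adjusted p alone (limma adjusted p = 0.0303), and its groups did not overlap. Tbx5 and Gm16063 averaged below the array medians in both groups. RefSeq's gene table also places the noncoding gene Tbx3os1 across the start of Tbx3, and whether the Tbx3 probe set tells them apart is not given in the sources used here. Other T-box genes went both ways, with 2 of 15 higher, 2 lower and 11 not called, and a median of 0.18. Tbx2, the closest paralog of Tbx3, rose by 1.71 (SE 0.19, limma adjusted p = 0.000167), with signals of 7.85, 7.28 and 8.09 on Pax7-GFP arrays and 6.21, 5.91 and 5.97 on ES arrays. Tbx20, a heart factor, fell by 2.17 (SE 0.15, limma adjusted p = 7.93e-06). Without Pax7-GFP replicate 3 there was 1 higher T-box gene, since Tbx15 came to 0.95, under the 2-fold limit. Limma's treat against 2-fold also gave 1 higher, and leaving out dim genes kept 6 of the 15, of which 1 was lower.

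**Figure D3:**
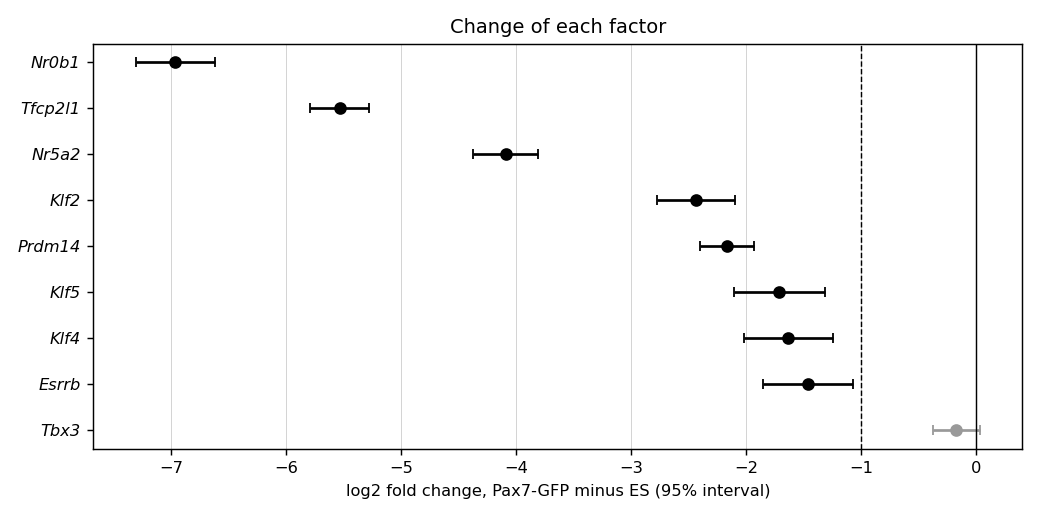
Change of each factor on the log2 scale, Pax7-GFP minus ES, as points with 95% intervals from limma. The dashed line marks a 2-fold fall, black points were called and the grey point, Tbx3 at -0.17, was not. Nr0b1, Tfcp2l1 and Nr5a2 lie apart from one another and from the rest, whereas the intervals from Klf2 to Esrrb form an overlapping chain.

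The wider pluripotency network fell with the 8 factors. All 4 core genes (Pou5f1, Sox2, Nanog and Sall4) were lower, with a median of -5.32, led by Nanog at -6.89 and Sox2 at -6.48 (limma adjusted p = 1.00e-08 and 1.87e-08). Their mean signal was 5.67 to 5.76 on Pax7-GFP arrays and 10.46 to 10.63 on ES arrays. Sall4 stood at -4.17, and Pou5f1, which encodes Oct4, changed least, at -1.79. Pou5f1 signals were 6.76, 6.90 and 6.91 on Pax7-GFP arrays, above the array medians, and 8.47, 8.71 and 8.75 on ES arrays. Of 12 other genes of the naive state 11 fell and 0 rose, with a median of -3.19, led by the Nodal co-receptor gene Tdgf1 at -7.13 and the Oct4 target Fbxo15 at -7.12. The gene not called was Dppa5a, at -0.18, with signals of 5.36, 5.34 and 5.20 on Pax7-GFP arrays and 5.45, 5.48 and 5.52 on ES arrays. All of these lay below the array medians, so persistence of Dppa5a cannot be read from them. With every probe set tested on its own, 4 of 5 core and 11 of 13 naive-state probe sets were lower. The mean of probe sets gave 10 lower naive-state genes, and limma's treat against 2-fold gave 9. Nanog stands in both lists, and these lists were written with earlier results of these arrays known.

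Genes of the formative and primed states, which follow the naive state as cells leave it, were mostly not called. Of 11 measured 3 fell and 0 rose, with a median of -0.41, and 5 of the 8 not called passed the adjusted p alone. With no minimum fold 7 were lower and 1 was higher. Those that fell most were Dnmt3b, at -3.36, and Zic2, a zinc finger factor of the epiblast and neural plate, at -2.84 (SE 0.13, limma adjusted p = 8.13e-07). Fgf5, the marker most used for the primed state, had a change of 0.075 (limma adjusted p = 0.616). It averaged 5.05 on Pax7-GFP and 4.97 on ES arrays, below the array medians in both groups.

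Few of the signalling inputs to the network were called. Of 11 genes of the LIF and Wnt inputs 0 rose and 1 fell, with a median of 0.44, and 8 of the 10 not called passed the adjusted p alone. After quantile normalization 2 input genes were called higher. Pim1, a kinase gene that Stat3 induces, was the one that fell, with signals of 7.71, 7.14 and 7.18 on Pax7-GFP arrays and 9.24, 9.56 and 9.42 on ES arrays (log2 fold change -2.07, SE 0.16, limma adjusted p = 1.88e-05). The LIF receptor gene Lifr had signals of 10.48, 10.20 and 10.19 on Pax7-GFP arrays and 9.27, 9.27 and 9.37 on ES arrays, which do not overlap, with a difference of 0.99, just under the 2-fold limit. Stat3 stood at 0.69 and Tcf7l1 at -0.89. In 4 of the 6 fits that left out 1 array, 1 input gene passed as higher: Jak1 without Pax7-GFP replicate 1 (1.04), and Lifr without Pax7-GFP replicate 2, Pax7-GFP replicate 3 or ES replicate 3 (1.03, 1.04 and 1.02).

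**Figure D4:**
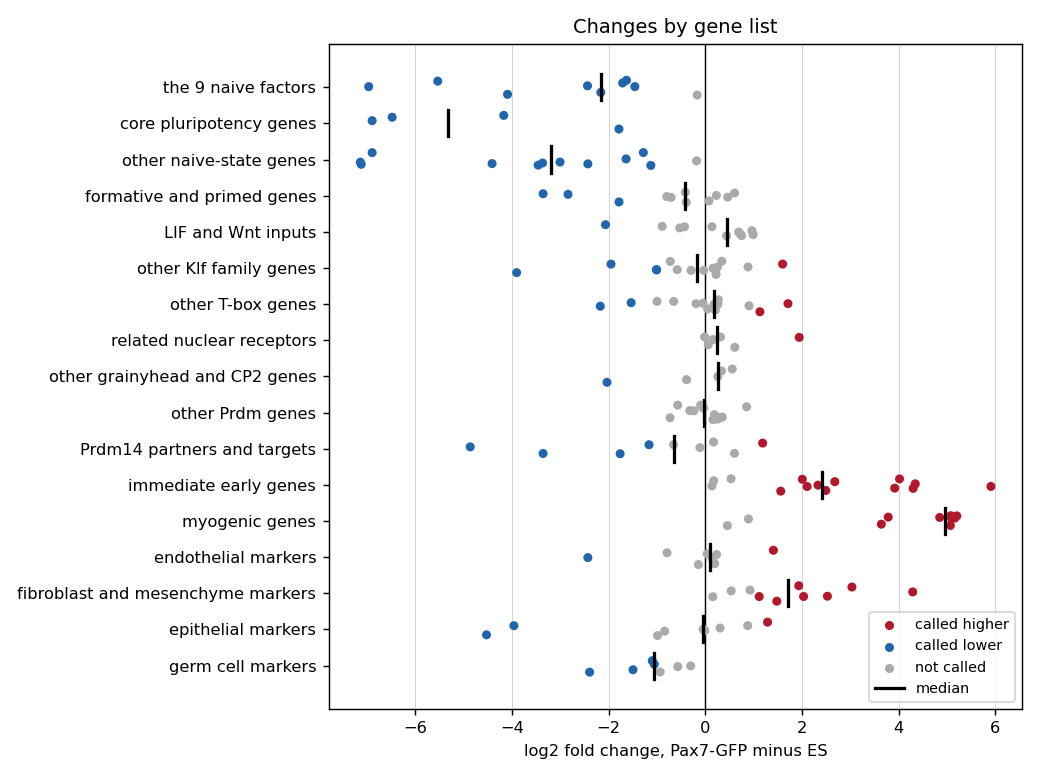
Log2 fold change, Pax7-GFP minus ES, of every measured gene of each list, with 1 point a gene, red for called higher, blue for called lower and grey for not called, and a black bar at the median. The 9 factors, the core genes and the other naive-state genes lie to the left, at medians of -2.16, -5.32 and -3.19, while the families of the factors centre near 0.

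The genes most like the 9 factors across the arrays were sought by distance. Each gene was centred on its mean of the 6 arrays, and its Euclidean distance was taken to the median of the 9 centred factors. The 5 nearest genes outside the set were Spint2, which encodes a serine protease inhibitor, at a distance of 0.147, Sh2d4b at 0.168, Cul4b, which encodes a ubiquitin ligase scaffold, at 0.188, Mfsd13a at 0.192 and Serpinb9b at 0.209. Their log2 fold changes lay between -2.28 and -2.16. The factors themselves lay between 0.426 (Prdm14) and 5.85 (Nr0b1) from their own median, because their falls differ so much in size. Over 6 arrays in 2 groups this measure mostly reflects the size of the change.

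No single Pax7-GFP array held the highest signal of all lower factors. Replicate 2 was the highest for 4 of the 8 lower factors, replicate 1 for 3 and replicate 3 for 1, and replicate 3 was the lowest for 4. Each of the 8 was called in every fit that left out 1 array, with the same direction.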

How the data were processed

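The deposited values are log2 RMA signals, 1 per probe set and array, made by the authors with RMA in R 2.12.1, per the submitters' processing notes. Per the labels' protocols, total RNA was amplified in 2 cycles into biotinylated cRNA, which can favour 3' ends. For RMA options, probe set definition and genome build, the sources used here give nothing. The table held 41345 probe sets, of which 23521 carried 1 gene symbol in GEO's platform annotation and 1814 several, while 16010 were unnamed here. Each of 22180 genes was represented by its single-symbol probe set of highest mean. 3 Pax7-GFP and 3 ES arrays, grouped by title, were compared by lmFit and eBayes of limma 3.58.1 (R 4.3.3), with two-sided p-values adjusted by Benjamini-Hochberg over all genes. Calls needed a log2 difference of 1 or more in size and an adjusted p below 0.05. Levels are per array or mean ± SD, and precision is limited by the number of arrays. No dim gene was left out, so all 9 factors entered the fit.

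The factors and the gene lists were chosen with earlier results of these data known. Named genes are all 9 factors, from each list the 2 largest called changes and the largest in the other direction, and the 5 nearest by distance; any other gene was named after its values were seen. Some genes stand in more than 1 list. T and Krt5 had no single-symbol probe set and were not analysed here. Lists are described by counts and medians, with no set test. On data simulated from the 22180 genes of this comparison, the fit called 96 of 100 genes raised by 1.5 on the log2 scale, 100 of 100 lowered by 3 and 0 of 21980 unchanged. Simulated noise was normal and independent between genes and arrays, and far fewer genes were changed than were called here. With the 2-fold minimum few unchanged genes could be called. These counts check the code and give no error rate for the real arrays.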

Additional observations from a re-analysis of the deposited data

How the results depend on the processing

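Of the 9 factors, 8 were called lower and Tbx3 was not called under array median scaling, quantile normalization, the mean of probe sets, removal of dim genes, a floor on signals, every probe set on its own, no minimum fold, a trended robust prior, array weights and the replicate block, and in each of the 6 fits without 1 array. Some of these settings were no test of the 8 calls. Each factor has 1 probe set, so the mean of probe sets and every probe set on its own could not change its log2 fold change. Removal of dim genes went by the mean over all 6 arrays, which high ES signals alone can raise. It too could not change a log2 fold change. Dropping the minimum fold could only add calls. No factor changed direction in any of the 18 alternatives. A 4-fold minimum called 5 of the 9, by construction leaving out Klf5 (-1.71), Klf4 (-1.63) and Esrrb (-1.46). Limma's treat, which tests against 2-fold, called 7, leaving out Esrrb (-1.46, SE 0.17, limma treat adjusted p = 0.15). The Esrrb estimate lay beyond 2-fold but was not precise enough to pass that test. Without 1 array, the log2 fold change of Nr0b1 ranged from -7.15 to -6.86, of Esrrb from -1.61 to -1.31 and of Tbx3 from -0.23 to -0.13. The gene lists, with 67 of 152 genes called, gave 109 without a minimum fold, 42 at 4-fold, and 67 to 69 without 1 array. Over all genes, 3212 were called, against 9126 without a minimum fold, 1010 at 4-fold, 1713 in the test against 2-fold, and 3169 to 3309 without 1 array. The titles do not say that replicate numbers pair the groups. Deviations of same-numbered arrays from their group means correlated at -0.11, -0.22 and 0.0069, which cannot settle pairing with 3 arrays a group. With the replicate block 8 factors, 67 list genes and 3213 genes were called. Only 3 arrays a group and the lack of detection calls limit what can be said of signals near the array medians.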
